A study of Mus musculus with 7 samples.

Results

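Astrocyte marker genes were examined in RNA-seq libraries of cortical neurons from male C57BL/6 mouse embryos at E16.5, 4 KAT7 mutant and 3 wild type. The KAT7 protein, of the MYST family, acetylates histones. Neither the alleles and any driver of the mutation, nor how the cells were isolated, is stated in the sources used here, and both genotypes carry the same strain, age and tissue labels. The replicates are separate mice, per the design text. The 10 marker genes were chosen by symbol, through their Entrez identifiers, from 26286 rows of the deposited table: Gfap (14580), Aqp4 (11829), Aldh1l1 (107747), Slc1a2 (20511), Sparcl1 (13602), Apoe (11816), Clu (12759), Slc4a4 (54403), Gja1 (14609) and S100b (20203). Libraries held 8272487 to 8813060 counts, and 13681 genes passed the filter on low counts and were tested with edgeR's quasi-likelihood test.

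Astrocytes arise late in cortical development from radial glia that have already produced neurons. Signals through the gp130 receptor and JAK-STAT, BMP signals, Notch and transcription factors of the nuclear factor I family act on glial genes such as Gfap in this switch. Mature astrocytes take up glutamate, buffer ions and water around vessels and synapses, are coupled by gap junctions, and secrete lipoproteins and synapse-organising proteins. Several of these genes are shared with other cells: radial glia also carry some of them, S100b is present in oligodendrocyte precursors, Apoe in microglia, and Sparcl1 and Clu in some neurons.

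Kat7 itself stood at 0.351, 0.464, 0.354 and 1.22 CPM (counts scaled to a common library size) in KAT7 mutant replicates 1 to 4, against 103, 97.0 and 96.6 CPM in wild type replicates 1 to 3. Neuron genes had higher levels than the astrocyte genes, with Sparcl1 the exception in KAT7 mutant. Per 1000 bases of the deposited gene length, the 16 listed neuron genes had mean levels between 39.1 (Rbfox3) and 984 (Tubb3) CPM in KAT7 mutant and between 28.6 (Rbfox3) and 1137 (Tubb3) CPM in wild type. On the same scale the astrocyte genes ran between 0.0239 (Aqp4) and 50.4 (Sparcl1) CPM in KAT7 mutant, and between 0.163 (S100b) and 23.0 (Sparcl1) CPM in wild type. In KAT7 mutant Sparcl1 was thus above the neuron genes Rbfox3 and Bcl11b (45.8 CPM), and below them in wild type.

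The comparison asks how astrocyte genes differ in cells with almost no Kat7 mRNA. Gfap, the intermediate filament gene, Slc4a4, a bicarbonate transporter gene, and Gja1, the connexin 43 gene, fell in KAT7 mutant. Sparcl1, which encodes a secreted synapse-organising protein, rose more than 2-fold. Slc1a2, Apoe, Clu and Aldh1l1 were not called. Aqp4 and S100b had too few counts to be tested. At an edgeR adjusted p under 0.05, 1 of the 8 tested marker genes rose, beside 13.1% of all tested genes, and 3 fell, beside 15.8%. In either direction 4 of the 8 were called, beside 28.9%. The genotypes did not overlap in 4 of the 8, beside 35.3% of all tested genes. Their median log2 fold change was -0.02, beside 0.00 over all tested genes. In bulk samples, fewer cells of a type and less RNA per cell cannot be told apart.

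**Figure D1:**
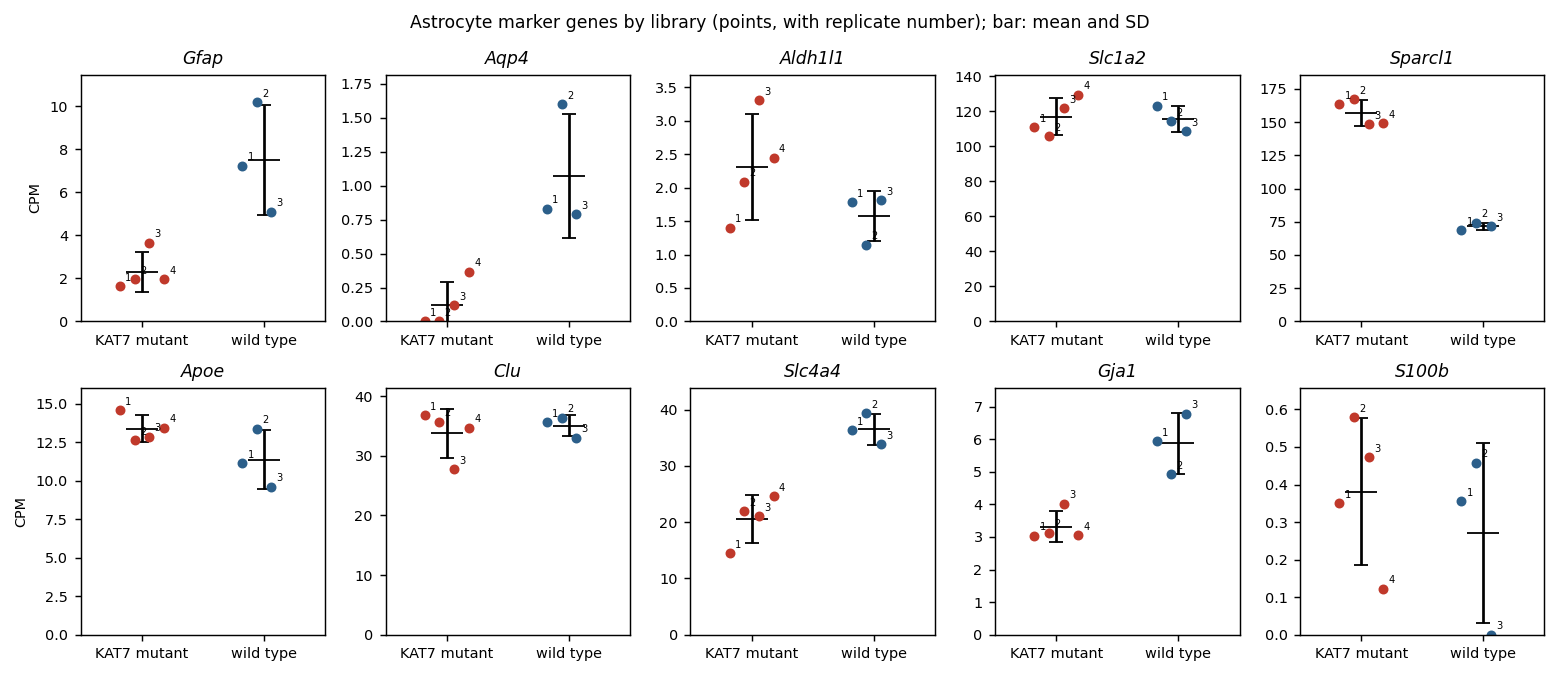
CPM of each of the 10 astrocyte marker genes (vertical axes, from 0) in the 4 KAT7 mutant libraries (left, red) and the 3 wild type libraries (right, blue), with replicate numbers beside the points and the mean and SD as bars. Gfap, Aqp4, Slc4a4, Gja1 and Sparcl1 have no overlap between genotypes, and only Sparcl1 of these is higher in KAT7 mutant.

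Gfap, the cytoskeletal gene most often used to mark astrocytes, had 1.64, 1.97, 3.66 and 1.96 CPM in KAT7 mutant replicates 1 to 4, against 7.24, 10.2 and 5.09 CPM in wild type replicates 1 to 3. The genotypes did not overlap, although the levels rested on 14 to 31 counts a library in KAT7 mutant and 45 to 89 in wild type. Its log2 fold change was -1.70 ± 0.26 (SE), with a 95% interval of -2.24 to -1.15 and an edgeR adjusted p of 5.23e-05. Replicate 3 was the highest mutant library and replicate 2 the highest wild type library. Leaving out the mutant one gave -2.01 and leaving out the wild type one gave -1.41.

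Gja1, whose product forms the gap junctions that couple astrocytes, had 3.04, 3.13, 4.02 and 3.06 CPM in KAT7 mutant replicates 1 to 4. Wild type replicates 1 to 3 had 5.94, 4.92 and 6.79 CPM, all above the mutant libraries. The gene fell by 0.83 ± 0.19 (SE) on the log2 scale, with an edgeR adjusted p of 0.00228. Replicate 3 was again the highest of the mutant libraries.

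Slc4a4 encodes NBCe1, the sodium bicarbonate cotransporter by which astrocytes move bicarbonate and regulate pH. It had 14.5, 21.9, 21.0 and 24.6 CPM in KAT7 mutant replicates 1 to 4, against 36.3, 39.4 and 33.8 CPM in wild type replicates 1 to 3. Every mutant library lay below every wild type library, and mutant replicate 1 was the lowest. The log2 fold change was -0.83 ± 0.12 (SE), with an edgeR adjusted p of 2.44e-05.

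Promoter windows are shown for these 3 genes because they fell together and because nuclear factor I genes named further on were also called. RefSeq windows of assembly GRCm38.p6 were found for 7 of the 10 marker genes, and Slc4a4 has 2 starts in them. Each sequence below is the 250 bases before a start, read 5′ to 3′ on the gene's strand. The spans are chr11:102897201-102897450 (minus strand) for Gfap and chr10:56377050-56377299 (plus strand) for Gja1. For Slc4a4 they are chr5:88887010-88887259 and chr5:89027716-89027965, both on the plus strand. Capitals mark the nuclear factor I half-site TGGCA and the RBPJ site TGGGAA, searched on both strands. Rbpj, named after its values were seen, was not called (log2 fold change 0.15, edgeR adjusted p = 0.0524). It stood at 106 to 115 CPM in KAT7 mutant and 96.4 to 104 CPM in wild type.
Gfap: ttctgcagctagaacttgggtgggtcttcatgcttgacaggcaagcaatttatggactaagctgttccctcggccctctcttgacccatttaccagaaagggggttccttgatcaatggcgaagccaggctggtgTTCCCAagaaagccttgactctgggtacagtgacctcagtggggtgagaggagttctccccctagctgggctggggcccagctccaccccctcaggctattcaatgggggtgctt
Gja1: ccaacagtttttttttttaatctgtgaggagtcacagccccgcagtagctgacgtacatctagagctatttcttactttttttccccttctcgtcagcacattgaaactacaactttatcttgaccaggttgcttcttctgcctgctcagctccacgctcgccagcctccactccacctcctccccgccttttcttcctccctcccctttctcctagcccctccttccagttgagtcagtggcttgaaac
Slc4a4, first start: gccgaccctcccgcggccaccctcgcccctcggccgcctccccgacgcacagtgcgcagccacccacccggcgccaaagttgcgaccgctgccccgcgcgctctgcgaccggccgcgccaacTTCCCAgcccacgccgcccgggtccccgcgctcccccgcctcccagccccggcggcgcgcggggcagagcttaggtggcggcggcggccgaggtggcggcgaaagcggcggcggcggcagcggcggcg
Slc4a4, second start: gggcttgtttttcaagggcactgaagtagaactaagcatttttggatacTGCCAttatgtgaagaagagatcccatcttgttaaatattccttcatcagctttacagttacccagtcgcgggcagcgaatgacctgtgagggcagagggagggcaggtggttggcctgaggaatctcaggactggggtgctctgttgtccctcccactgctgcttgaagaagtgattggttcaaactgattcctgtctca

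The Gfap window held 1 RBPJ match, whose first base lay 115 bases before the start, and no half-site letters. Neither motif was present in the Gja1 window. The first Slc4a4 window, with a GC content of 82.0%, held 1 RBPJ match, and the second, with 48.8% GC, held 1 half-site. The STAT letters TTCNNNGAA were in none of the 4 windows. Among 32851 windows of this length, 42.8% held a half-site, 21.6% an RBPJ match and 7.02% the STAT letters. Of the other marker genes with a window, Apoe (all 3 starts), Aldh1l1 and S100b held a half-site, Aldh1l1 and S100b also held an RBPJ match, and Slc1a2 held neither. Of these, Apoe, Aldh1l1 and Slc1a2 were not called, and S100b had too few counts to be tested. The motifs were chosen after the fold changes were known, and a match describes letters only.

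Aqp4, the water channel gene of astrocyte end-feet, was near the limit of detection. Counts were 0, 0, 1 and 3 in KAT7 mutant replicates 1 to 4 and 7, 14 and 7 in wild type replicates 1 to 3, so the genotypes did not overlap. Summed over libraries, 4 counts stood against 28, which puts the mutant level at 10.9% of that in wild type (95% exact interval 2.77 to 31.1, binomial, counting error only). An exact two-sided permutation test over the libraries gave p = 0.0571, the smallest that 4 against 3 libraries can give. With no filter on counts, edgeR put its log2 fold change at -3.04 with an adjusted p of 7.19e-05.

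S100b, a calcium-binding protein gene, was as sparse. It had 3, 5, 4 and 1 counts in KAT7 mutant replicates 1 to 4 and 3, 4 and 0 counts in wild type replicates 1 to 3. Those ranges overlap, and a difference was not detected (mutant level 141% of wild type, 95% exact interval 52.4 to 419, exact two-sided permutation p = 0.457). With no filter on counts, edgeR put its log2 fold change at 0.49 with an adjusted p of 0.698. The interval spans falls and rises, so moderate differences were not detectable at this depth.

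Sparcl1, also called hevin, is secreted by astrocytes and promotes the formation of excitatory synapses. It had 164, 167, 148 and 149 CPM in KAT7 mutant replicates 1 to 4, against 68.8, 74.2 and 71.8 CPM in wild type replicates 1 to 3. Every mutant library lay well above every wild type library, and the spread within each genotype was small. Its log2 fold change was 1.13 ± 0.06 (SE), with a 95% interval of 1.01 to 1.26 and an edgeR adjusted p of 2.71e-11. Of all tested genes, 96.2% had a smaller fold change in size.

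Slc1a2 encodes GLT-1, the main glutamate transporter of astrocytes. It had 111, 106, 122 and 129 CPM in KAT7 mutant replicates 1 to 4, against 123, 114 and 108 CPM in wild type replicates 1 to 3. The ranges overlap, the log2 fold change was 0.02 ± 0.07 (SE), and its 95% interval was -0.12 to 0.16. Its sign turned negative without wild type replicate 3, without KAT7 mutant replicate 3 or 4, and with the replicate number as a block.

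Apoe and Clu encode the apolipoproteins of brain lipid particles. Apoe had 14.6, 12.6, 12.9 and 13.4 CPM in KAT7 mutant replicates 1 to 4, against 11.2, 13.4 and 9.62 CPM in wild type replicates 1 to 3. Clu had 36.8, 35.7, 27.8 and 34.7 CPM in the mutant libraries, against 35.6, 36.4 and 33.0 CPM in the wild type libraries. Both genes overlapped between genotypes. The log2 fold change was 0.23 for Apoe (95% interval -0.03 to 0.50, edgeR adjusted p = 0.185) and -0.05 for Clu (-0.24 to 0.14, 0.71).

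Aldh1l1, a folate enzyme gene that marks astrocytes broadly, had 1.40, 2.09, 3.31 and 2.45 CPM in KAT7 mutant replicates 1 to 4, against 1.78, 1.14 and 1.81 CPM in wild type replicates 1 to 3. Replicate 1 lay inside the wild type range and the other mutant libraries above it. The log2 fold change of 0.54 had a 95% interval of -0.10 to 1.19 and an edgeR adjusted p of 0.206. With 10 to 28 counts a library, a change of this size was not detectable.

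**Figure D2:**
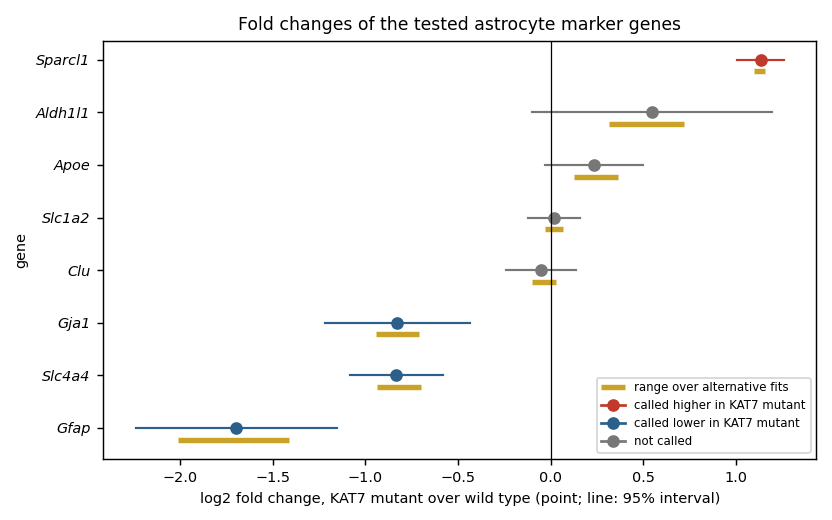
Log2 fold changes (KAT7 mutant over wild type, horizontal axis) of the 8 tested astrocyte marker genes, with the 95% interval as a thin line and the range over the alternative fits as a yellow bar. Sparcl1 at 1.13 lies right of 0 and Gfap, Slc4a4 and Gja1 lie left of it in every fit, while the intervals of the other genes span 0.

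The marker genes also differed in level. Per 1000 bases, Sparcl1 led in both genotypes, with 50.4 ± 3.13 CPM in KAT7 mutant (SD, n = 4) and 23.0 ± 0.869 CPM in wild type (SD, n = 3). Clu came next, at 18.7 CPM in KAT7 mutant and 19.4 CPM in wild type. In both genotypes Slc1a2 and Apoe followed with overlapping ranges, and then Slc4a4 and Gja1. Gfap and Gja1 had overlapping levels in wild type, at 1.84 ± 0.628 and 1.89 ± 0.301 CPM per 1000 bases (SD, n = 3). In KAT7 mutant Gfap stood at 0.566 ± 0.225 CPM per 1000 bases (SD, n = 4), below Aldh1l1 at 0.749 ± 0.257, with overlapping ranges. Aldh1l1 also overlapped Gja1 in KAT7 mutant. Aqp4 was the lowest in KAT7 mutant, and Aqp4 and S100b, which overlapped, were the lowest in wild type.

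**Figure D3:**
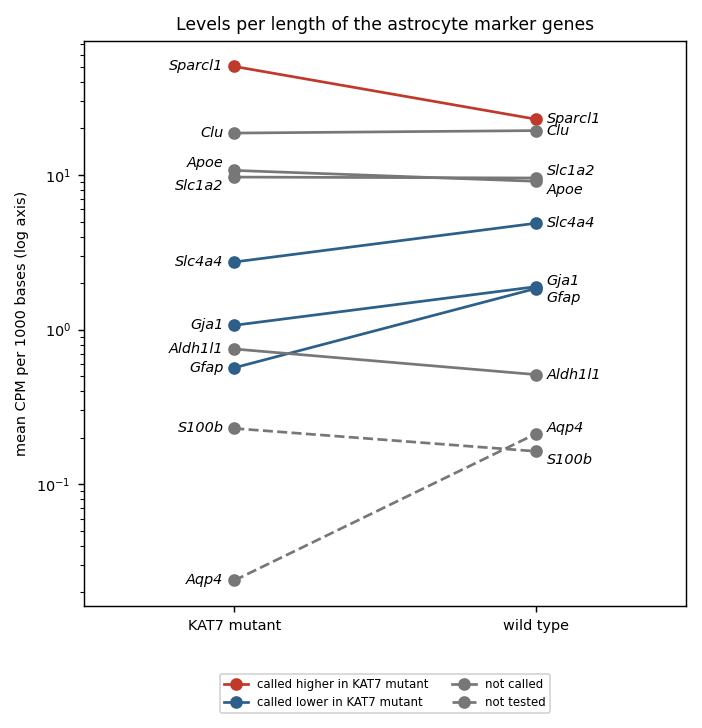
Mean level of each astrocyte marker gene per 1000 bases of gene length (log axis) in KAT7 mutant (left, n = 4) and wild type (right, n = 3), with a line for each gene coloured by its call. Sparcl1 slopes down towards wild type, Gfap, Gja1 and Slc4a4 slope up, and Clu and Slc1a2 are nearly flat.

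Because Sparcl1 and Slc1a2 make up most of the summed CPM, the sum over the 10 genes runs against the genes that fell. The sum was 343 to 359 CPM in KAT7 mutant and 271 to 296 CPM in wild type. Without Sparcl1 it was 183 to 210 CPM in KAT7 mutant and 199 to 223 CPM in wild type, which overlap. Without Sparcl1 and Slc1a2 it was 72.3 to 80.7 CPM in KAT7 mutant and 91.0 to 107 CPM in wild type. Gfap, Aqp4, Gja1 and Slc4a4 together gave 19.2 to 30.0 CPM in KAT7 mutant and 46.5 to 56.1 CPM in wild type. Each of these genes was already lower without overlap, which fixes the separation of their sum. Within the mutant group, replicate 1 was the lowest library, or tied for it, for Gfap, Aqp4, Gja1, Slc4a4 and Aldh1l1, and replicate 3 or 4 was the highest for each of them.

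Other genes known from astrocytes were lower more often than higher. Of 36 listed, 26 passed the filter, of which 10 fell, 1 rose and 15 were not called. Over all tested genes 15.8% fell and 13.1% rose. The list's median log2 fold change was -0.37, beside 0.00 over all tested genes. The 10 that did not pass include Gjb6 and S1pr1, which had no count in any library. Neither the count nor the median was tested as a set.

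Slc6a11, the GABA transporter GAT-3, had 6.43, 9.39, 9.33 and 9.41 CPM in KAT7 mutant replicates 1 to 4, against 25.1, 25.6 and 19.3 CPM in wild type replicates 1 to 3. It fell by 1.43 ± 0.14 (SE) on the log2 scale, with an edgeR adjusted p of 1.30e-07. Ttyh1, a membrane protein gene of radial glia and astrocytes, averaged 18.1 ± 1.86 CPM in KAT7 mutant (SD, n = 4) and 46.1 ± 0.764 CPM in wild type (SD, n = 3). Kcnj10, the potassium channel Kir4.1 that sits with Aqp4 in end-feet, averaged 4.52 ± 0.769 CPM in KAT7 mutant and 9.70 ± 1.68 CPM in wild type (SD, n = 4 and 3). The glycolytic enzyme gene Aldoc averaged 10.5 ± 2.37 CPM in KAT7 mutant and 20.7 ± 4.31 CPM in wild type (SD, n = 4 and 3). The genotypes did not overlap in any of the 4, which their choice as called genes with large changes nearly fixes.

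The glutamate transporter gene Slc1a3, named after its values were seen, fell by 0.51 on the log2 scale, so GLAST and GLT-1 transcripts did not receive the same call. Whether the 2 transporter genes differ from each other was not tested. The most abundant genes of the list without a call were Glul, the glutamine synthetase gene, at 0.05, Atp1b2, a sodium pump subunit gene, at 0.13, and Cspg5, a brain proteoglycan gene, at -0.15. Glul averaged 124 ± 2.94 CPM in KAT7 mutant and 120 ± 5.17 CPM in wild type (SD, n = 4 and 3).

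The 1 called rise was Hepacam, an adhesion molecule gene of astrocyte contacts, which was named after its values were seen. It had 1.99, 2.90, 4.49 and 3.06 CPM in KAT7 mutant replicates 1 to 4, against 1.54, 2.29 and 1.36 CPM in wild type replicates 1 to 3. The genotypes overlapped, and its call at an edgeR adjusted p of 0.0383 was lost when wild type replicate 1 or 3 was left out, and when KAT7 mutant replicate 2, 3 or 4 was (0.0522 to 0.148). DESeq2, limma-voom and the fit with a replicate block did not call it.

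Transcription factors that act on glial genes included 9 that fell, of 17 listed and 16 that passed the filter, beside 15.8% of all tested genes. The other 7 were not called. Their median log2 fold change was -0.30, beside 0.00 over all tested genes, and the list was not tested as a set. At an unadjusted edgeR p under 0.05, 11 were lower and 1 was higher. The share of all tested genes at that looser threshold was not taken, so these counts cannot be set beside it. Nfia, the nuclear factor I gene best known for starting gliogenesis, had 210, 210, 181 and 203 CPM in KAT7 mutant replicates 1 to 4, against 462, 460 and 494 CPM in wild type replicates 1 to 3. The gene fell by 1.23 ± 0.05 (SE) on the log2 scale, with an edgeR adjusted p of 2.03e-12. Nfix, of the same family, averaged 659 ± 97.4 CPM in KAT7 mutant and 1095 ± 39.3 CPM in wild type (SD, n = 4 and 3), and fell by 0.73.

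Hes5, a Notch target gene that keeps progenitors undifferentiated, fell by 1.31, at 0.584 to 1.83 CPM in KAT7 mutant and 2.37 to 3.20 CPM in wild type. Pou3f2, a POU factor gene expressed in progenitors and upper-layer neurons, fell by 0.84. Nuclear factor I genes and Pou3f2 are also expressed in neurons. One member of the list was called higher with RLE factors, with no count filter, in limma-voom with quality weights and without KAT7 mutant replicate 2, and 2 members were without mutant replicate 1. Stat3, the factor through which gp130 acts on Gfap, was named after its values were seen and fell by 0.44, with all mutant libraries (18.4 to 21.6 CPM) below all wild type libraries (26.2 to 26.6 CPM).

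The gp130 and BMP pathways had calls in both directions, most of them small. Of 8 ligand genes 4 passed the filter and none of them was called by edgeR or by DESeq2, though 1 was lower at an unadjusted edgeR p under 0.05. The highest in mean CPM over all libraries were Cntf, for a gp130 cytokine, at 1.95 ± 0.265 CPM in KAT7 mutant and 2.26 ± 0.318 CPM in wild type, and Bmp7, at 1.10 ± 0.342 CPM in KAT7 mutant and 1.54 ± 0.683 CPM in wild type (SD, n = 4 and 3).

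Of 8 receptor genes 7 were tested, 2 fell and 1 rose, beside 15.8% and 13.1% of all tested genes. With so few genes, the receptors, and likewise the transducers and inhibitors, were not set apart from those shares. Bmpr1b, a BMP receptor gene, fell by 0.62 (edgeR adjusted p = 0.00123). Il6st, which encodes gp130, fell by 0.35 (0.0247), a call lost when wild type replicate 3 (0.224) or mutant replicate 1 (0.0604) was left out. Cntfr, the CNTF receptor gene, rose by 0.25 (0.0361). It was not called by DESeq2, with library size only, or when wild type replicate 2 or 3 or mutant replicate 1 or 3 was left out, with an adjusted p of up to 0.1995. Of 8 transducer genes 7 were tested: Smad5, a BMP effector gene, fell by 0.38, Jak1 fell by 0.18 and Jak2 rose by 0.23. Leaving out wild type replicate 2 or mutant replicate 4, or a replicate block, ended the call of Jak1. A second transducer was called higher without wild type replicate 3.

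Among the called genes of these pathways, the largest changes were those of BMP antagonist genes. All 9 listed inhibitor genes of the gp130 and BMP pathways were tested. Of them 2 rose and 2 fell, beside 13.1% and 15.8% of all tested genes, and 5 were not called. Nog, which encodes the secreted BMP antagonist noggin, had 5.61, 6.03, 6.26 and 5.75 CPM in KAT7 mutant replicates 1 to 4, against 2.61, 2.29 and 2.26 CPM in wild type replicates 1 to 3. It rose by 1.30 ± 0.19 (SE) on the log2 scale, with an edgeR adjusted p of 2.45e-05. The antagonist genes Grem1 and Chrd went the other way and fell by 1.03 and 0.94. Socs2, of the family that damps JAK-STAT signalling, rose by 0.42, at 57.7 to 65.8 CPM in KAT7 mutant and 44.4 to 47.3 CPM in wild type.

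**Figure D4:**
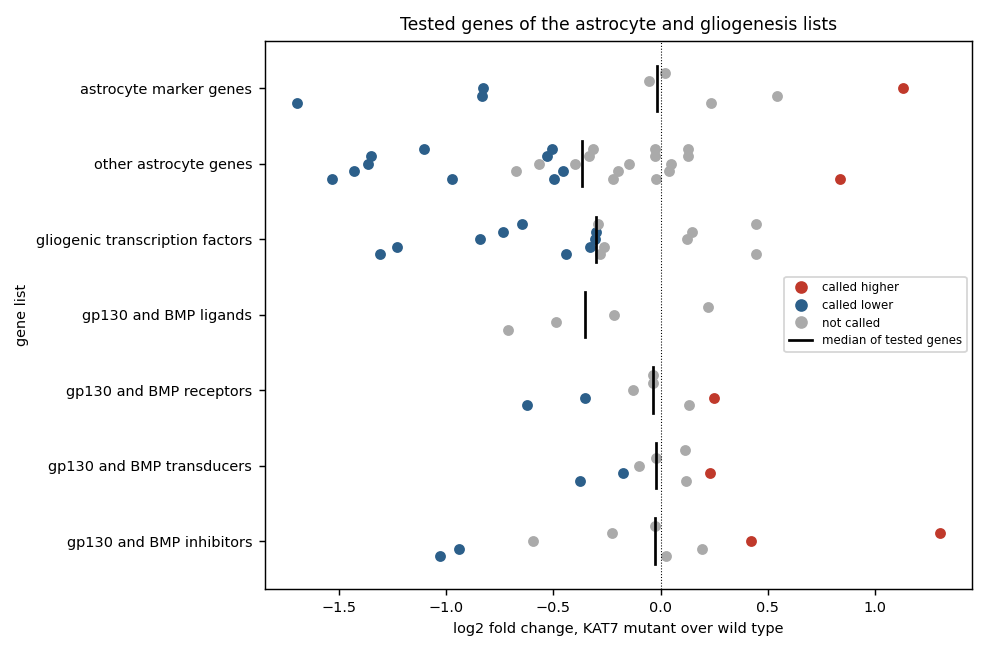
Log2 fold changes (KAT7 mutant over wild type, horizontal axis) of the tested genes of each list, coloured by the edgeR call, with the list median as a black line. Points of the other astrocyte genes and the gliogenic transcription factors lie mostly left of 0, with medians of -0.37 and -0.30, whereas Sparcl1 at 1.13 and Nog at 1.30 lie on the right.

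Markers of other cells that can express some of these genes moved with genotype as well. Radial glia genes summed to 528 to 584 CPM in KAT7 mutant and 803 to 852 CPM in wild type. Of 15 listed, 13 were tested, of which 8 fell and 1 rose, beside 15.8% and 13.1% of all tested genes. None of the lists of other cells was tested as a set. Fabp7 and Slc1a3 are also in the other astrocyte list, and Hes1 and Hes5 in that of the transcription factors. Tnc, a matrix protein gene of radial glia and astrocytes, fell by 1.37, Pax6, a factor gene of cortical progenitors, by 1.48, and Ptprz1, a receptor phosphatase gene, by 0.70. The 1 that rose was Ednrb, by 1.10, at 15.8 to 31.0 CPM in KAT7 mutant and 9.14 to 11.1 CPM in wild type. Sox2 (0.07), Prom1 (-0.07), Fabp7 (-0.20) and Hopx (-0.29) were not called. Ednrb and these 4 were named after their values were seen. Ddah1 had a count in 1 library only. The share of radial glia in the falls of Gfap, Slc4a4 and Gja1 was not tested.

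Oligodendrocyte lineage genes, which bear on S100b, summed to 38.3 to 57.1 CPM in KAT7 mutant and 34.3 to 40.4 CPM in wild type. Of 9 listed, 8 were tested, of which 4 rose and 1 fell, beside 13.1% and 15.8% of all tested genes. The precursor factor genes Olig2 and Sox10 rose by 1.67 and 1.87. Mbp, the highest in CPM, was not called, at 15.1 ± 1.70 CPM in KAT7 mutant and 15.4 ± 0.998 CPM in wild type (SD, n = 4 and 3). Microglia genes, which bear on Apoe, summed to 47.4 to 63.8 CPM in KAT7 mutant and 34.3 to 41.1 CPM in wild type. Of 12 listed, 9 were tested, of which 5 rose and none fell, beside 13.1% and 15.8% of all tested genes. Among the 5 were the growth factor receptor gene Csf1r at 1.05 and the Fc receptor gene Fcer1g at 0.72. By DESeq2, and with wild type replicate 1 or mutant replicate 3 or 4 left out, 3 rose, and 1 fell without mutant replicate 3. P2ry12, Trem2 and Ctss were below the filter, and the part of microglia in the Apoe values was not tested.

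Vascular genes also bear on Sparcl1. Endothelial genes summed to 18.5 to 22.3 CPM in KAT7 mutant and 24.0 to 28.2 CPM in wild type. Of 10 listed, 7 were tested, of which 3 fell and none rose, beside 15.8% and 13.1% of all tested genes. Ramp2, a receptor accessory protein gene, fell by 1.27, the thyroid hormone transporter gene Slco1c1 by 0.89 and the glucose transporter gene Slc2a1 by 0.43. The lower endothelial sum lies mainly in these 3 genes. Slc2a1 averaged 7.17 CPM in KAT7 mutant and 9.66 CPM in wild type, and Slco1c1 3.72 and 6.92 CPM. The median of the 7 tested was -0.14, and the 4 without a call had no common direction. Pecam1, an adhesion molecule gene, was at 0.97 (edgeR adjusted p = 0.0561) and was called higher when wild type replicate 2 or mutant replicate 4 was left out, with no count filter and with a replicate block. The growth factor receptor genes Kdr and Flt1 were at 0.10 and -0.14, and Esam was at 0.00, none of them called and each of changing sign among the alternatives. These 4 were named after their values were seen. Slc2a1 lost its call by DESeq2, with the block, and when wild type replicate 1 or 3 or mutant replicate 2 or 4 was left out. Pericyte genes summed to 7.46 to 11.0 CPM in KAT7 mutant and 12.9 to 14.0 CPM in wild type. Only 2 of 7 listed were tested, and both fell, Pdgfrb by 0.73 and Notch3 by 0.55 on the log2 scale. Of all tested genes 15.8% fell, and 2 genes are too few to set beside that share. Notch3 lost its call by DESeq2, with the block, and when wild type replicate 2 or 3 or mutant replicate 2 or 4 was left out. The other defining endothelial genes, Cldn5, Cdh5 and Tek, did not pass the filter and were at 0.818 CPM or below in every library. The part of vascular cells in the rise of Sparcl1 was not tested.

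Neuron genes, which bear on Sparcl1 and Clu, summed to 13575 to 14332 CPM in KAT7 mutant and 14407 to 15170 CPM in wild type. Without Stmn2, a leave-out chosen after seeing the data, the sums were 13245 to 13976 CPM in KAT7 mutant and 13116 to 13816 CPM in wild type, which overlap. Of the 16, all tested, 6 rose and 5 fell, beside 13.1% and 15.8% of all tested genes. Tbr1, a deep-layer factor gene, rose by 0.51 and Stmn2, a tubulin-binding protein gene of growing axons, fell by 2.02. Dcx, the highest in CPM, averaged 2997 ± 230 CPM in KAT7 mutant and 2928 ± 178 CPM in wild type (SD, n = 4 and 3). The part of neurons in the rise of Sparcl1 was not tested.

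Choroid plexus and ependyma genes, which include sources of Clu, summed to 8.51 to 30.6 CPM in KAT7 mutant and 8.19 to 19.5 CPM in wild type. Ttr, which encodes the thyroid hormone carrier transthyretin, set most of that spread, at 6.43, 20.9, 1.54 and 6.97 CPM in KAT7 mutant replicates 1 to 4 and 0.356, 0.687 and 8.37 CPM in wild type replicates 1 to 3. It was not called, except when wild type replicate 3 or mutant replicate 3 was left out, with no count filter and in limma-voom with quality weights. Of 8 listed, 3 were tested, of which 1 fell and none rose, beside 15.8% and 13.1% of all tested genes. The fall was that of Enpp2, a secreted phospholipase gene, by 1.48 on the log2 scale. Meningeal genes summed to 6.11 to 7.32 CPM in KAT7 mutant and 6.18 to 8.37 CPM in wild type, and Slc6a13 had no count. Of 8 listed, 2 were tested and neither was called. One meningeal gene was called lower without wild type replicate 3, with no count filter and at a CPM of at least 1. Blood genes summed to 52.8 to 162 CPM in KAT7 mutant and 22.2 to 129 CPM in wild type, with mutant replicate 3 and wild type replicate 1 the highest. Of 8 listed, 4 were tested and none was called. Without wild type replicate 1, 4 blood genes were called higher, among them Hba-a2 at a log2 fold change of 1.72. In that fit 1449 genes in all were called higher.

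**Figure D5:**
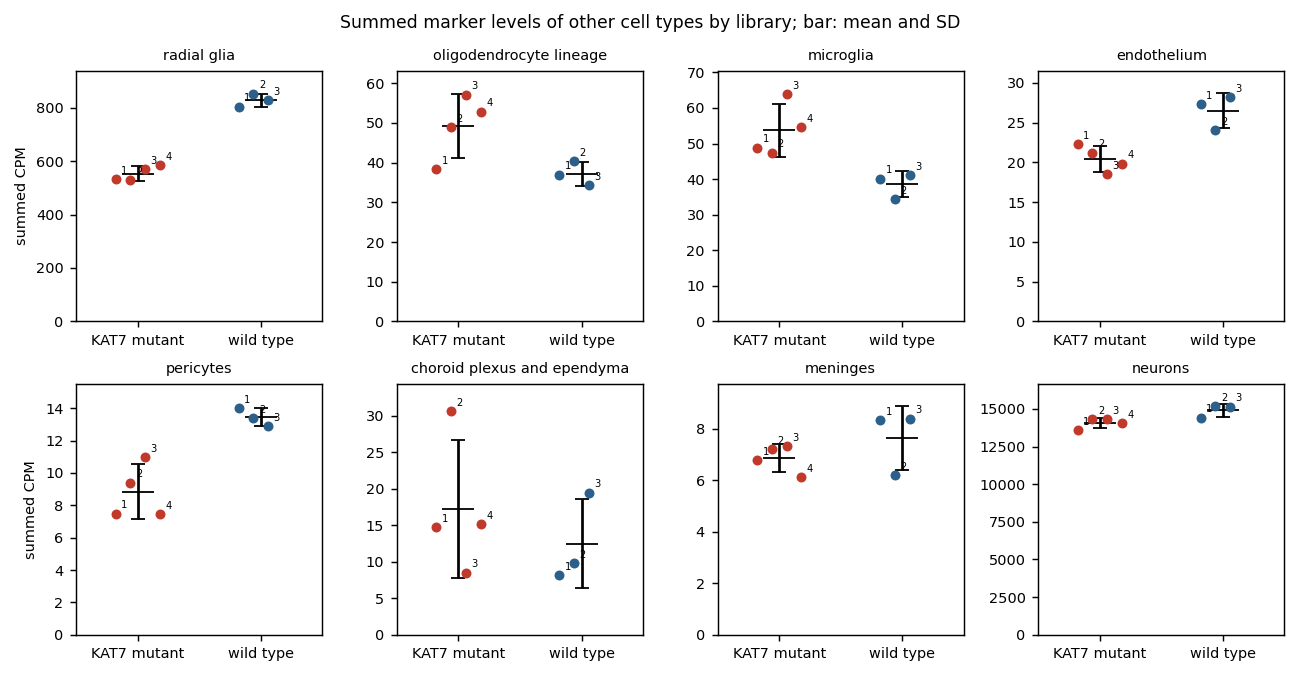
Summed CPM of marker genes of 8 other cell types (vertical axes, from 0) in the 4 KAT7 mutant libraries (left, red) and the 3 wild type libraries (right, blue), with replicate numbers, mean and SD. Radial glia, endothelium, pericyte and neuron sums are lower in every KAT7 mutant library, at 528 to 584 CPM against 803 to 852 CPM for radial glia. The neuron sums overlap once Stmn2 is left out. The endothelial difference lies mainly in Slc2a1, Slco1c1 and Ramp2, while the 4 tested endothelial genes without a call had no common direction. Microglia sums are higher in every KAT7 mutant library.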

How the data were processed

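The authors deposited 1 table of raw counts of reads, whole numbers for each Entrez identifier in 7 libraries, and a gene length. The submitters' processing notes name featureCounts and the build mm9. No source used here states the aligner, the annotation or the strand setting, and reads of overlapping or antisense genes cannot be separated. RefSeq genes overlap Aqp4, Aldh1l1, Slc1a2, Sparcl1 and Slc4a4, and none of these overlapping genes has a row in the table. Symbols came from an NCBI gene table of GRCm38.p6, which matched 92% of identifiers.

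Genes were filtered with filterByExpr by genotype (minimum count 10), which left 13681, and scaled by TMM (factors 0.9894 to 1.0097). Genotypes were compared with the two-sided quasi-likelihood F test of edgeR 4.0.16 in R 4.3.3, with genotype as the only term. Calls were made at a Benjamini-Hochberg adjusted p under 0.05 over all tested genes. Each SE was obtained by dividing the size of the log2 fold change by the root of F. Tested marker genes had at least 10 counts in every library. The fit was tested on simulated counts.

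The marker genes and lists were chosen with earlier results of these data known. The genes named are the marker genes, Kat7, and genes of each list by rule, with exceptions marked. Of the other astrocyte genes these are the 4 largest called falls and rises with a mean of at least 5 CPM in a genotype, and the 3 uncalled genes highest in CPM. Of the other gliogenesis lists they are up to 4 called genes with the largest changes, or the 2 highest in CPM where none was called. Of other cell types they are up to 2 such called genes and the gene highest in CPM. Alternatives were other factors (RLE, upper quartile, none), other filters (none, or 1 CPM in at least 3 libraries), DESeq2 1.42.0, limma-voom (3.58.1, plain or with quality weights), edgeR's robust fit, a replicate block, an adjusted p under 0.01, and leaving out each library.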

Additional observations from a re-analysis of the deposited data

Results flagged for a closer look

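In 8 of 54 named genes, 1 KAT7 mutant library stood apart from the other 3 by more of the group's range than Dixon's 95% critical value allows, which chance gives in about 1 of 20 groups. Replicate 3 was the high library for Gfap (3.66 CPM), Gja1 (4.02 CPM) and Notch3 (5.32 CPM). Replicate 1 was the low library for Slc6a11 (6.43 CPM) and Il6st (16.1 CPM) and the high one for Jak2 (194 CPM). Replicate 2 was low for Ttyh1 (15.3 CPM), and replicate 4 was high for Kat7 (1.22 CPM). For Gfap, Gja1, Notch3 and Kat7 the library that stood apart was the highest mutant one, and it still lay below every wild type library. For Slc6a11, Il6st and Ttyh1 it was the lowest, and the other mutant libraries also lay below every wild type library.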

How the results depend on the processing

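The calls of Gfap, Slc4a4, Gja1 and Sparcl1 held in every alternative run, with log2 fold changes of -2.01 to -1.41, -0.94 to -0.70, -0.94 to -0.71 and 1.10 to 1.16, and 4 marker genes rather than 3 were called lower with no count filter, which admits Aqp4. Slc1a2, never called, had -0.0324 with the replicate block and -0.032 to 0.0645 with 1 library left out. With 1 library left out, sign also turned for the uncalled Clu (-0.0995 to 0.0268), Mbp (-0.104 to 0.0175), Col3a1 (-0.0374 to 0.2303), Dcx (-0.0116 to 0.0839), Kdr (-0.0714 to 0.2729), Flt1 (-0.3079 to 0.0849) and Esam (-0.4499 to 0.3536). The block also gave -0.0744 for Kdr and -0.0012 for Esam. Esam was at -0.0039 with upper-quartile factors, -0.0117 with library size only, -0.0021 with no count filter and -0.0007 at a CPM of at least 1. Over all genes, 1793 were called higher and 2163 lower, against 1034 and 1532 at an adjusted p under 0.01. Of the other astrocyte and gliogenesis lists, 5 genes were called higher, against 3 by DESeq2 and 3 at an adjusted p under 0.01. Same-numbered libraries did not deviate together (Pearson r 0.018, 0.012 and -0.029 across genes), and not every library correlated best with its own number. A replicate block gave 1460 higher and 1943 lower calls, with 1 and 3 among the marker genes. No scaling moved the median of all genes beyond -0.011 to 0.0095. Aqp4, S100b and Aldh1l1 are limited by depth.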

Other observations

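Dio2 and Mlc1 of the other astrocyte list had larger called falls than some genes named by rule, but a mean of under 5 CPM in both genotypes, which the rule for naming leaves out. They were chosen after their values were seen. Mlc1, whose product is held at astrocyte junctions by the Hepacam product, had 0.701, 1.62, 1.06 and 1.10 CPM in KAT7 mutant replicates 1 to 4, against 2.14, 2.63 and 3.96 CPM in wild type replicates 1 to 3. It fell by 1.37 ± 0.31 (SE) on the log2 scale, with an edgeR adjusted p of 0.00228 (0.000111 to 0.0285 over its alternatives), while Hepacam was at 0.84. Whether the 2 genes differ from each other was not tested. Dio2, the enzyme by which astrocytes activate thyroid hormone, had 1.05, 0.580, 1.06 and 1.10 CPM in KAT7 mutant replicates 1 to 4, against 2.26, 3.32 and 2.72 CPM in wild type replicates 1 to 3. It fell by 1.53 ± 0.30 (SE), with an edgeR adjusted p of 0.000531 (2.95e-05 to 0.00701 over its alternatives), and the thyroid hormone transporter gene Slco1c1 also fell. Both rest on few counts. Mlc1 had 6 to 14 counts in KAT7 mutant and 18 to 35 in wild type, and Dio2 had 5 to 9 counts in KAT7 mutant and 19 to 29 in wild type.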
